A study of Homo sapiens with 24 samples.

Results

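GDF15, INHBE, STC2 and ADM2 encode secreted factors whose mRNAs are induced by the integrated stress response. These 4 genes were chosen from a list of such factors, with earlier results of these data known, among them the fall of GDF15 in treated knockdown cells. All 4 of 4 were found in both deposited tables, among 63241 gene identifiers without the toxin and 36741 with it. For the treated knockdown contrast, and for its difference from the untreated contrast, the values of the 4 genes are therefore given as a description, with no test.

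The study sequenced polyadenylated RNA of cells labelled SH-SY5Y, a human neuroblastoma line used as a model of dopamine neurons, in 24 libraries. There were 2 arms. In the knockdown arm, shMCART1 cells with a short hairpin RNA to MCART1 were set against shScramble cells with a scrambled one. In the overexpression arm, oeMCART1 cells were set against the control oeNC. Each construct was sampled untreated and after 24 h in 0.5 mM MPP+, an inhibitor of complex I of the respiratory chain, which gives 8 groups of 3 libraries. MCART1, now SLC25A51, encodes the mitochondrial importer of NAD+. All groups shared the line and medium. The labels name no clone, vector or promoter. They do not state whether replicates came from different cultures, so p-values reflect only the spread of these libraries, which may be technical. The deposited values are TPM (transcript abundance per gene length, with a fixed sum per library), so depth is unknown. A mean is followed by the SD over 3 libraries, and a log2 difference by its SE.

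As a check of the labels, SLC25A51 stood in shMCART1 at 66.5% of shScramble without MPP+ and 67.5% with it, and in oeMCART1 at 21.6 and 110 times oeNC. Its groups did not overlap in any of these 4 comparisons. Its means without and with MPP+ were 683 and 936 TPM in oeMCART1, but 31.6 and 8.49 TPM in oeNC. In shScramble they were 10.95 and 7.91 TPM, so untreated oeNC, the control of the untreated overexpression contrast, stood above the other control. The reason was not tested. Of 12 neuroblastoma markers, 5 or 6 reached a mean of 1 TPM in each group. PHOX2A, TH and DBH had means of 0 to 0.03 TPM, while HAND2, GATA3, ISL1 and GAP43 were present. The growth protocol also names HEK293T, a kidney-derived line, and the tissue label reads bone marrow. The 6 kidney epithelium markers summed to 80.9 to 142 TPM per library, most of it KRT18. Of these 6, 2 to 4 reached a mean of 1 TPM in each group, among them EPCAM at 1.48 to 2.89 TPM, while PAX8 was at 0 to 0.03 TPM. With MPP+ the kidney sum was 136 to 142 TPM in oeNC and 98.8 to 110 in oeMCART1, and 123 to 129 in shScramble and 125 to 133 in shMCART1. Of 7 blood and bone marrow markers, 1 (HBA1) reached 1 TPM in each group, and their treated sums were 18.8 to 24.8 TPM in oeNC, 8.63 to 13.5 in oeMCART1, 17.0 to 19.3 in shScramble and 16.3 to 22.0 in shMCART1. Of 7 mesenchymal or Schwann-like markers, 4 or 5 reached 1 TPM, and the treated sums were 24.7 to 32.3 TPM in oeNC, 16.9 to 22.1 in oeMCART1, 27.1 to 28.98 in shScramble and 32.3 to 34.9 in shMCART1. These 3 sums were thus lower in treated oeMCART1 than in oeNC without overlap, where the 4 secreted factors were higher. Most of the mesenchymal fall was COL1A1 (10.4 to 2.47 TPM), while SNAI2 (10.7 and 10.9 TPM) and PRRX1 (0.687 and 1.28 TPM) did not fall. The neuroblastoma sum went the other way, at 14.7 to 17.3 TPM in treated oeNC and 19.2 to 19.6 in oeMCART1. Nearly all of this rise was CHGA (1.78 to 4.53 TPM) and CHGB (0.773 to 2.61 TPM). HAND2 (2.29 to 1.82 TPM), GAP43 (3.74 to 3.41 TPM) and STMN2 (0.68 to 0.237 TPM) were lower, and GATA3 and ISL1 changed little. The neuroblastoma sum overlapped between treated shScramble (20.2 to 22.6 TPM) and shMCART1 (21.0 to 25.1 TPM). The mesenchymal sum was higher in treated shMCART1, where the 4 secreted factors were lower. The part of these markers in the results was not tested.

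The integrated stress response begins when a kinase phosphorylates the translation factor eIF2, which slows protein synthesis while letting the transcription factor ATF4 be translated. ATF4 and its partners then switch on genes of amino acid supply and several secreted proteins. GDF15 is a cytokine of the TGF-beta family that lowers appetite through the brainstem receptor GFRAL with RET. INHBE encodes the beta subunit of activin E, STC2 the glycoprotein stanniocalcin 2, which inhibits the protease PAPP-A and so spares IGF-binding proteins, and ADM2 the peptide adrenomedullin 2 (intermedin), which acts through CALCRL with RAMP partners.

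The genes lie on different chromosomes, so they are not neighbours. In GENCODE 29 on GRCh38, GDF15 (ENSG00000130513) spans 18374731 to 18389176 of chromosome 19, plus strand, and contains the microRNA gene MIR3189. INHBE (ENSG00000139269) spans 57452323 to 57459280 of chromosome 12, plus strand. STC2 (ENSG00000113739) spans 173314713 to 173329503 of chromosome 5, minus strand. ADM2 (ENSG00000128165) spans 50481556 to 50486440 of chromosome 22, plus strand.

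Start-site sequence was read because all 4 genes were higher with overexpression of MCART1 under MPP+. RefSeq windows on GRCh38.p14, from 250 bases before to 50 after the start, were held for GDF15, STC2 and ADM2. The first 2 contain a CCAAT box, read as ATTGG on the coding strand, at -103 to -99 in GDF15 and -100 to -96 in STC2. It is in capitals in the 30 bases shown from chr19:18386043-18386072 (plus strand) and chr5:173328497-173328526 (minus strand), which GENCODE also places in the transcribed first exon of longer transcripts. For ADM2, whose window has no such box, the 250 bases before the start are shown (chr22:50481293-50481542, plus strand), of which 78.8% are G or C.
GDF15: ccagctgtggtcATTGGagtgtttactctg
STC2: ccggggtctcggATTGGtccagccgccggg
ADM2: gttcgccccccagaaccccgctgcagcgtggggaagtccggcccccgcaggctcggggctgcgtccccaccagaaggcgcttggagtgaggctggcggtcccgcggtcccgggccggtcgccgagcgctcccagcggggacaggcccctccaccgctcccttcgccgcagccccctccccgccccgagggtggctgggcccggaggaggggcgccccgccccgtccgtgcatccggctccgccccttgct
The CCAAT box occurs on either strand in 34.6% of 35116 such promoter windows, and GDF15 also has a TATA box (TATAAA, in 11.5%) at -29 to -24. Both motifs were added after the sequences were seen. The core of the C/EBP-ATF response element bound by ATF4 (TGATGNAA, in 3.62%), the cyclic AMP response element (TGACGTCA, in 1.85%) and the endoplasmic reticulum stress element (CCAAT and CCACG 9 bases apart, in 0.0769%) had no match in these 3 windows on either strand. These are matches of letters only.

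Without MPP+, GDF15 mRNA was near the floor of the data. Its TPM were 0.15, 0.12 and 0.55 in shScramble, 0.11, 0.19 and 0.61 in shMCART1, 0.70, 0.36 and 0.61 in oeNC, and 1.61, 1.16 and 1.52 in oeMCART1. The oeMCART1 libraries were the only 3 of 12 at 1 TPM or more, and lay above all others, while the remaining groups overlapped. With MPP+ the gene read 31.89, 27.48 and 26.97 TPM in shScramble, 12.16, 12.66 and 9.24 in shMCART1, 21.75, 19.43 and 24.02 in oeNC, and 52.47, 52.87 and 64.19 in oeMCART1. All 4 treated groups were separate, in the order oeMCART1, shScramble, oeNC, shMCART1.

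INHBE, the activin E subunit, behaved alike at similar levels. Untreated TPM were 0.32, 0.33 and 0.39 in shScramble, 0.41, 0.46 and 0.31 in shMCART1, 0.19, 0.34 and 0.37 in oeNC, and 1.19, 0.68 and 0.94 in oeMCART1. Again the oeMCART1 libraries stood above the rest. With MPP+ they were 23.44, 23.79 and 27.49 in shScramble, 10.86, 11.47 and 12.09 in shMCART1, 15.93, 16.71 and 19.30 in oeNC, and 30.35, 27.01 and 29.80 in oeMCART1. The order of groups was that of GDF15, but oeMCART1 and shScramble overlapped.

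STC2 was the only one of the 4 well expressed without the toxin, at 27.14, 28.46 and 31.56 TPM in shScramble, 25.26, 28.33 and 21.92 in shMCART1, 20.10, 23.45 and 21.95 in oeNC, and 27.94, 25.05 and 26.75 in oeMCART1. Neighbouring groups in this order of levels overlapped. With MPP+ it read 80.42, 89.57 and 90.40 in shScramble, 64.41, 55.21 and 66.21 in shMCART1, 68.12, 64.61 and 79.05 in oeNC, and 114.95, 106.26 and 112.17 in oeMCART1. Treated oeMCART1 and shScramble each stood apart, whereas oeNC and shMCART1 overlapped.

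ADM2 was the lowest of the 4 in treated cells. Untreated TPM were 0.72, 0.52 and 0.78 in shScramble, 0.63, 0.73 and 1.29 in shMCART1, 0.43, 0.38 and 0.71 in oeNC, and 0.60, 0.48 and 0.59 in oeMCART1, with every neighbouring pair of groups overlapping. With MPP+ they were 3.67, 4.85 and 4.51 in shScramble, 2.32, 2.53 and 3.02 in shMCART1, 2.29, 2.78 and 3.29 in oeNC, and 5.71, 6.03 and 6.07 in oeMCART1. As for STC2, treated oeMCART1 lay highest and only oeNC and shMCART1 overlapped.

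**Figure D1:**
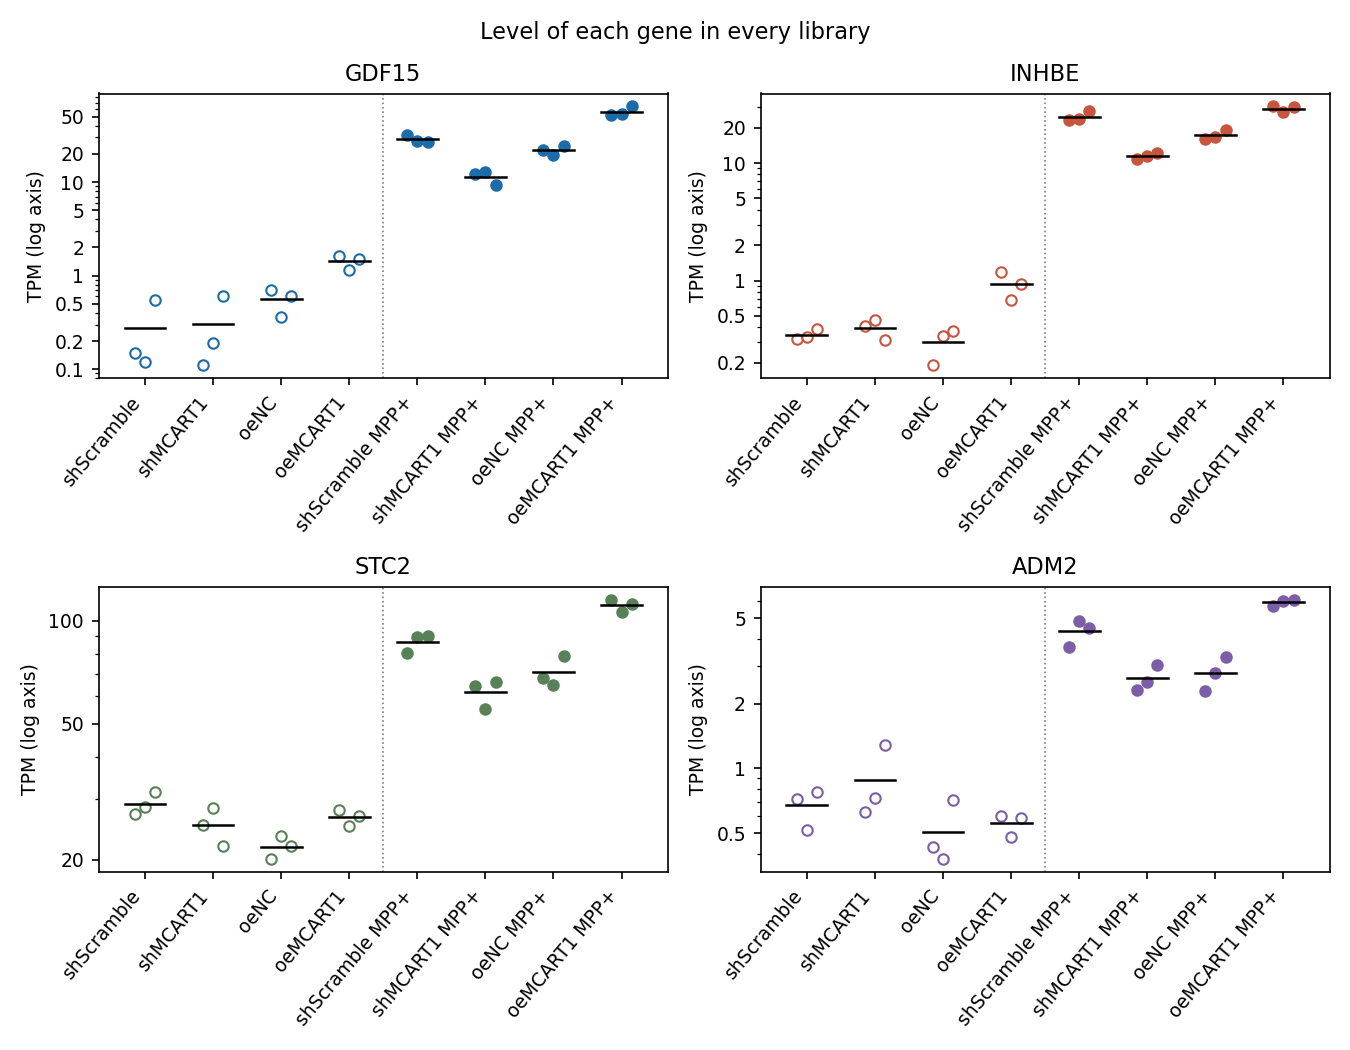
TPM of each gene in every library (log axis), by group; open points are untreated and filled points MPP+-treated libraries, and bars mark group means. GDF15 and INHBE lie mostly under 1 TPM without the toxin and at 9.24 TPM or more with it, and oeMCART1 is the highest treated group for all 4 genes.

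Treated and untreated libraries were deposited in 2 tables that were normalized separately and share 31524 identifiers, or 85.8% of the smaller, so their levels are set side by side without a test. The ratio of mean treated to mean untreated TPM for GDF15 was 105 in shScramble, 37.4 in shMCART1, 39.0 in oeNC and 39.5 in oeMCART1. For INHBE it was 71.8, 29.2, 57.7 and 31.0 in the same order. Untreated levels under 1 TPM make these ratios imprecise.
The ratios of the remaining pair were smaller. For STC2 they were 2.99, 2.46, 3.23 and 4.18, and for ADM2 6.45, 2.97, 5.50 and 10.7. Among 14724 genes at 1 TPM or more in either shScramble group, 6 had a higher ratio than GDF15 and 10 than INHBE on the scale of TPM + 1, against 234 for STC2 and 188 for ADM2. In bulk libraries, fewer cells making an mRNA and less of it per cell cannot be told apart.

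Together the 4 mRNAs summed to 30.3 ± 2.60 TPM in untreated shScramble, of which STC2 made up 95.8%. With MPP+ the sum was 145 ± 5.03 TPM in shScramble, 87.4 ± 4.80 in shMCART1, 112 ± 11.7 in oeNC and 203 ± 10.1 in oeMCART1. GDF15 held 19.9% of this sum in treated shScramble, 13.1% in shMCART1, 19.3% in oeNC and 27.8% in oeMCART1. Its share was thus lowest with the knockdown and highest with overexpression, while that of STC2 was 59.9% in shScramble and 70.8% in shMCART1, and 62.8% in oeNC and 54.9% in oeMCART1.

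**Figure D2:**
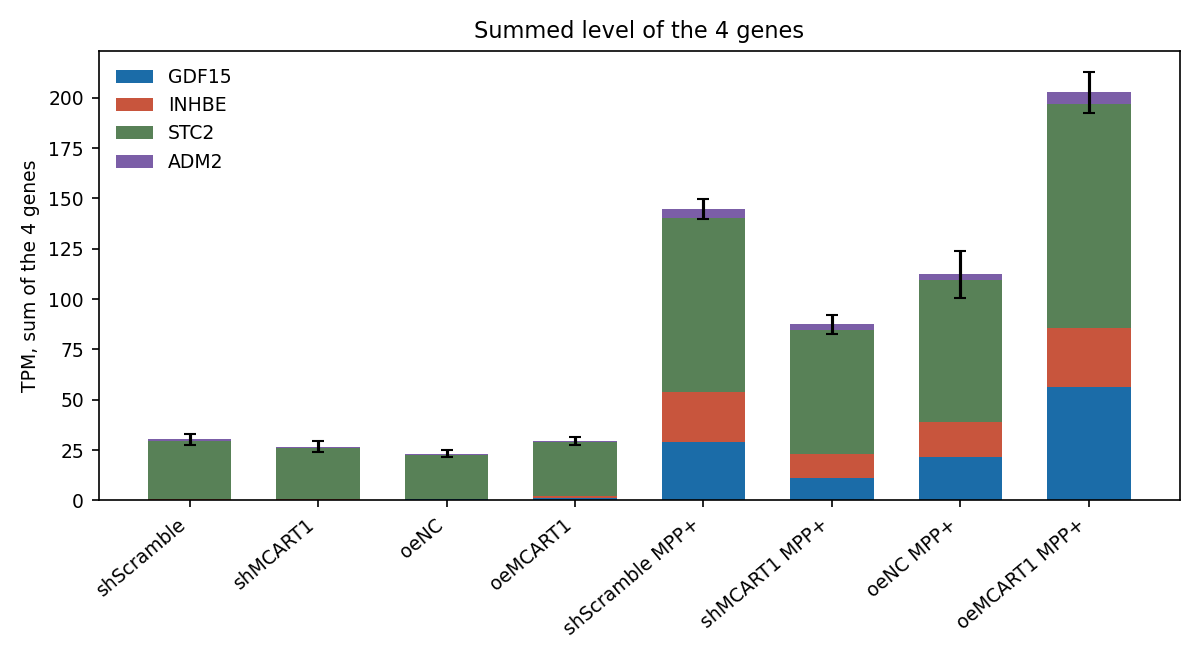
Summed TPM of the 4 genes per group, stacked by gene, with error bars for the SD of the sum over 3 libraries. The treated sums run from 87.4 TPM in shMCART1 to 203 TPM in oeMCART1, and STC2 is the largest part in every group.

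Under MPP+, all 4 genes were lower in shMCART1 than in shScramble, and the groups did not overlap. GDF15 went from 28.8 ± 2.71 to 11.4 ± 1.85 TPM, or 39.4% of the control, a log2(TPM + 1) difference of -1.28 ± 0.12 (SE). INHBE went from 24.9 ± 2.24 to 11.5 ± 0.615 TPM, or 46.1% (-1.05 ± 0.09 SE). STC2 stood at 71.4% of its control (86.8 ± 5.54 to 61.9 ± 5.90 TPM, -0.48 ± 0.08 SE) and ADM2 at 60.4% (4.34 ± 0.607 to 2.62 ± 0.359 TPM, -0.56 ± 0.12 SE). GDF15 and INHBE had the larger differences and STC2 and ADM2 the smaller. Over all 14895 genes tested here with limma, 10.8% were called higher and 22.2% lower at a Benjamini-Hochberg adjusted p under 0.05, and nothing is read from the members' number beside this.

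Without MPP+, none of the 4 differed detectably between shMCART1 and shScramble, and their libraries overlapped. GDF15 stood at 0.273 ± 0.240 and 0.303 ± 0.269 TPM in shScramble and shMCART1 (0.03 ± 0.19 SE, limma adjusted p = 0.907). STC2 stood at 29.1 ± 2.27 and 25.2 ± 3.21 TPM (-0.20 ± 0.11 SE, limma adjusted p = 0.144). INHBE (0.05) and ADM2 (0.16) were below the minimum of 1 TPM in 3 libraries and were not tested. Among 14703 genes, 8.64% were called higher and 25.6% lower in this comparison. Without shMCART1 replicate 2, STC2 would have been called lower (-0.29, limma adjusted p = 0.0413). In that fit 5318 of 14595 genes were called lower and 1929 higher, so nothing is read from this call. The knockdown difference with MPP+ minus that without was -1.31 ± 0.22 (SE) for GDF15, -1.10 ± 0.15 for INHBE, -0.72 ± 0.19 for ADM2 and -0.28 ± 0.14 for STC2. Of 15653 genes, 1.72% had a called positive and 2.15% a called negative difference of this kind.

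Overexpression under MPP+ raised all 4 genes, with no overlap between oeMCART1 and oeNC. All 4 were called, where 46.7% of 14895 genes were called higher and 14.2% lower. GDF15 rose from 21.7 ± 2.30 to 56.5 ± 6.65 TPM, 2.60 times its control (1.34 ± 0.12 SE, limma adjusted p = 4.33e-06). ADM2 rose from 2.79 ± 0.500 to 5.94 ± 0.197 TPM, or 2.13 times (0.88 ± 0.12 SE, adjusted p = 8.14e-05). INHBE rose from 17.3 ± 1.76 to 29.1 ± 1.79 TPM, or 1.68 times (0.72 ± 0.09 SE, adjusted p = 2.57e-05), and STC2 from 70.6 ± 7.53 to 111 ± 4.44 TPM, or 1.57 times (0.65 ± 0.08 SE, adjusted p = 4.54e-05). An exact 2-sided permutation test of the TPM of each gene reached p = 0.1, the smallest that 3 against 3 libraries allow. As the members were chosen with earlier results of these libraries in view, these p-values are not independent support.

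The size of these rises depended on the scaling. The median gene moved by 0.26 (log2) in treated oeMCART1, and by 0.00 when libraries were scaled by median of ratios, which turned 6949 higher and 2118 lower calls into 4066 and 4237. Under that scaling the rises were 1.03 for GDF15, 0.63 for ADM2, 0.41 for INHBE and 0.34 for STC2 (limma adjusted p of 6.93e-05 to 0.00507), all still called. The falls in treated shMCART1 were -1.17, -0.47, -0.95 and -0.38 in the same order of genes, beside 2554 higher and 2281 lower calls in place of 1616 and 3308.

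Without MPP+, GDF15 and INHBE were higher in oeMCART1 than in oeNC at low levels and without overlap, STC2 did not pass the test, and INHBE and ADM2 were below the expression minimum and not tested. GDF15 stood at 0.557 ± 0.176 TPM in oeNC and 1.43 ± 0.238 in oeMCART1, 2.57 times as much (0.64 ± 0.19 SE, limma adjusted p = 0.0161, where 33.5% of 14703 genes were called higher and 14.7% lower). GDF15 passed the expression minimum here only through oeMCART1, so it had to differ to be tested and this p is no support for a rise. Its call ended with a pseudocount of 0.1 (adjusted p = 0.0840) and with quantile normalization (0.51, adjusted p = 0.0755). INHBE stood at 0.300 ± 0.0964 and 0.937 ± 0.255 TPM in groups that did not overlap (0.57), below the minimum. With no minimum it was called (limma adjusted p = 0.0151), where 3967 of 32421 genes were called higher and 1655 lower. STC2 differed by 0.27 ± 0.11 (SE, adjusted p = 0.0509) in groups that did not overlap, or by 0.07 after median-of-ratios scaling, and ADM2 by 0.05 with overlapping libraries.

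The overexpression effects with and without MPP+ were compared on the log2(TPM + 1) scale by the test of the difference itself, over 15653 genes of which 12.6% had a called positive and 5.24% a called negative difference. ADM2 and GDF15 passed. The ratio of oeMCART1 to oeNC in TPM was 1.10 without MPP+ and 2.13 with it for ADM2. For GDF15, however, it was 2.57 without and 2.60 with MPP+, and with a pseudocount of 0.1 its difference was 0.13 (limma adjusted p = 0.916). ADM2 differed by 0.83 ± 0.19 (SE, limma adjusted p = 0.00530) and GDF15 by 0.69 ± 0.22 (adjusted p = 0.0352). STC2 (0.38 ± 0.14 SE, adjusted p = 0.0610) and INHBE (0.15 ± 0.15 SE, adjusted p = 0.565) did not pass. The GDF15 call ended under 4 other settings and on leaving out any of 7 libraries in turn, and the ADM2 call with a pseudocount of 0.1 or quantile normalization. For genes under 1 TPM, as GDF15, INHBE and ADM2 were in most untreated libraries, the log2(TPM + 1) scale understates a change.

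**Figure D3:**
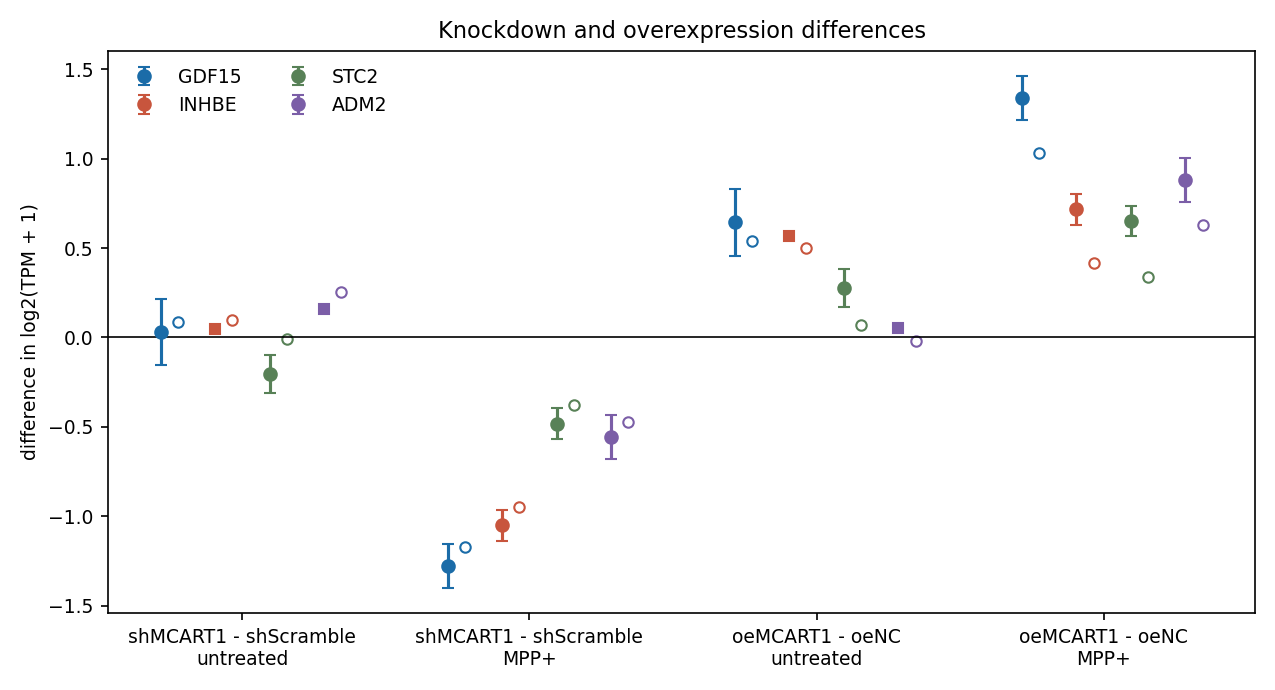
Difference in log2(TPM + 1) for each gene in the 4 within-table comparisons: filled circles with SE from limma, squares for genes below the expression minimum, open circles the same differences after median-of-ratios scaling. With MPP+ all 4 genes lie under 0 for knockdown (-1.28 to -0.48) and above 0 for overexpression (0.65 to 1.34); after median-of-ratios scaling these ranges are -1.17 to -0.38 and 0.34 to 1.03.

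Ratios between the genes within a library are not changed by a single scaling factor per library, though quantile normalization and GC correction can change them. With MPP+ there were 1.17 ± 0.190 GDF15 transcripts per INHBE transcript in shScramble, 0.996 ± 0.201 in shMCART1, 1.26 ± 0.102 in oeNC and 1.95 ± 0.213 in oeMCART1, on the TPM scale. The oeMCART1 libraries (1.73, 1.96 and 2.15) lay above all 9 others, so GDF15 went up further than INHBE there. The ratio of GDF15 to STC2 was 0.334 ± 0.0544 in shScramble, 0.186 ± 0.0449 in shMCART1, 0.308 ± 0.00994 in oeNC and 0.509 ± 0.0587 in oeMCART1. It separated shMCART1 from shScramble as well as oeMCART1 from oeNC.
The ratio of STC2 to ADM2 was 20.1 ± 1.72, 23.8 ± 3.40, 25.7 ± 3.55 and 18.7 ± 1.28 in the same order of groups. Its oeMCART1 libraries (17.6 to 20.1) lay below those of oeNC (23.2 to 29.7), whereas shMCART1 and shScramble overlapped.

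The transcripts of the 4 genes are rich in G and C, at percentile 88.0 of the genes tested in treated cells for GDF15, 77.3 for INHBE, 69.5 for STC2 and 99.2 for ADM2. Across genes, which are not independent replicates, the change in treated oeMCART1 fell with GC content (Spearman -0.603) and that in treated shMCART1 rose with it (0.484). The 4 genes lay on the other side of these treated trends. With each library's GC trend removed, the treated overexpression rises were 1.46, 0.75, 0.61 and 1.13 for GDF15, INHBE, STC2 and ADM2. The treated knockdown differences were then -1.38, -1.11, -0.50 and -0.71 in the same order of genes. Without MPP+ the trends were stronger (Spearman -0.801 for overexpression and 0.777 for knockdown). For effects with MPP+ minus those without, they were 0.209 for overexpression and -0.488 for knockdown. The 4 genes lay on the same side as these last trends. The part of GC content in the differences between effects was not tested.

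The other genes of the integrated stress response were counted in lists drawn up with earlier results known, members left out. Of 14 transcription factors and feedback genes, 10 were lower and 2 higher in treated shMCART1 (median -0.58, all genes -0.08). Over all genes, 22.2% were called lower and 10.8% higher in this comparison. TRIB3, a pseudokinase that restrains ATF4, fell (-0.98 ± 0.08 SE, limma adjusted p = 2.61e-05), as did SESN2, a leucine sensor (-1.10), the transcription factor CEBPB (-0.76) and the stress protein NUPR1 (-0.84). In treated oeMCART1, 8 of the 14 were higher and 4 lower (median 0.50, all genes 0.26), where 46.7% of all genes were called higher and 14.2% lower. After median-of-ratios scaling the counts were 5 and 5 (median 0.20), beside 4066 and 4237 of all 14895 genes. Nothing is read from these overexpression counts beside the shares of all genes. CEBPG, the partner of ATF4 (1.15), SESN2 (1.34) and ATF5 (0.85) rose, and DDIT4, an inhibitor of mTORC1 signalling (-0.82), fell. ATF4 and ATF3, singled out after their values were seen, went the other way from the 4 secreted factors at the mRNA level. ATF4 mRNA stood at 819 TPM in treated shScramble and 934 in shMCART1 (0.19, adjusted p = 0.00272, or 0.05 and not called after quantile normalization), and at 943 in oeNC and 797 in oeMCART1 (-0.24, adjusted p = 0.000133). ATF3 rose in treated shMCART1 (1.21) and fell in oeMCART1 (-0.47).

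Genes of amino acid supply, many of them ATF4 targets, mostly shared the direction of the secreted factors with MPP+. Of 29, 21 were lower and 1 higher in treated shMCART1 (median -0.41, all genes -0.08). Over all genes, 22.2% were called lower and 10.8% higher there. In treated oeMCART1, 21 of the 29 were higher and 5 lower (median 0.52, all genes 0.26). There 46.7% of all genes were called higher and 14.2% lower. WARS1, a tRNA synthetase, fell by 0.73 and rose by 0.88 on the log2 scale, and SLC7A11, the cystine transporter, fell by 1.13 and rose by 1.37. PSPH of serine synthesis (-0.97) and SLC7A5, a leucine transporter (-0.56), fell in shMCART1, while SLC7A1, an arginine transporter (0.57), and IARS1 (1.01) rose in oeMCART1. Under median-of-ratios scaling the treated overexpression counts were 16 higher and 9 lower, beside 4066 and 4237 of all 14895 genes. The treated knockdown counts were then 3 higher and 17 lower, beside 2554 and 2281. Without MPP+ the list was mixed. In shMCART1, 2 were higher and 12 lower, where 8.64% and 25.6% of all genes were called. In oeMCART1, 13 were higher and 8 lower, where 33.5% and 14.7% of all genes were called. Without shScramble replicate 2 the untreated knockdown counts were 0 and 0, beside 1 and 1 over all genes. With GC trends removed the untreated overexpression counts were 3 and 4, beside 1183 and 1122 of 14157 genes.

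The arms that feed this response were followed by their mRNAs. Of 7 genes for eIF2, its kinases and the mitochondrial relay, 6 rose in treated oeMCART1 and 0 fell, or 4 and 1 after median-of-ratios scaling and 2 and 1 with GC trends removed. Their median was 0.55, beside 0.26 for all genes, of which 46.7% were called higher. Among them were the kinases EIF2AK2 (0.97) and EIF2AK3 (0.84), the eIF2 subunit EIF2S1 (0.55) and the protease OMA1 (1.03). With GC trends removed the calls of EIF2S1 (-0.14) and OMA1 (0.36) ended. In treated shMCART1, EIF2S1 (-0.34) and EIF2AK2 (-0.35) fell, and neither was called with GC trends removed (-0.01 and -0.02). The same directions appeared without MPP+. In untreated shMCART1, 6 of the 7 were lower and 0 higher (median -0.58, all genes -0.15), where 25.6% of all genes were called lower. In untreated oeMCART1, 5 were higher and 0 lower (median 0.77, all genes 0.16), where 33.5% of all genes were called higher. With GC trends removed, 1 was called lower in untreated shMCART1 and 1 higher in untreated oeMCART1. The endoplasmic reticulum unfolded protein response, which can also reach ATF4, had 13 of 16 genes higher and 0 lower in treated oeMCART1 (11 and 1 after median-of-ratios scaling) and a median of 0.60 beside the same 0.26 and 46.7% for all genes, with XBP1 (0.61), MANF (0.83), SEL1L (1.23) and PDIA6 (0.51, not called with GC trends removed). In treated shMCART1 it went both ways, 6 lower and 2 higher (6 and 6 after median-of-ratios scaling), beside 22.2% and 10.8% of all genes. XBP1 (-0.61) and DNAJB9 (-1.02) were lower there and the chaperone HSPA5 (0.47) higher. Without MPP+, 8 of the 16 were lower and 0 higher in shMCART1 (median -0.32), or 3 and 0 with GC trends removed. In untreated oeMCART1, 8 were higher and 1 lower (median 0.40), or 5 and 2 with GC trends removed. The untreated shares of all genes are those given above.

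**Figure D4:**
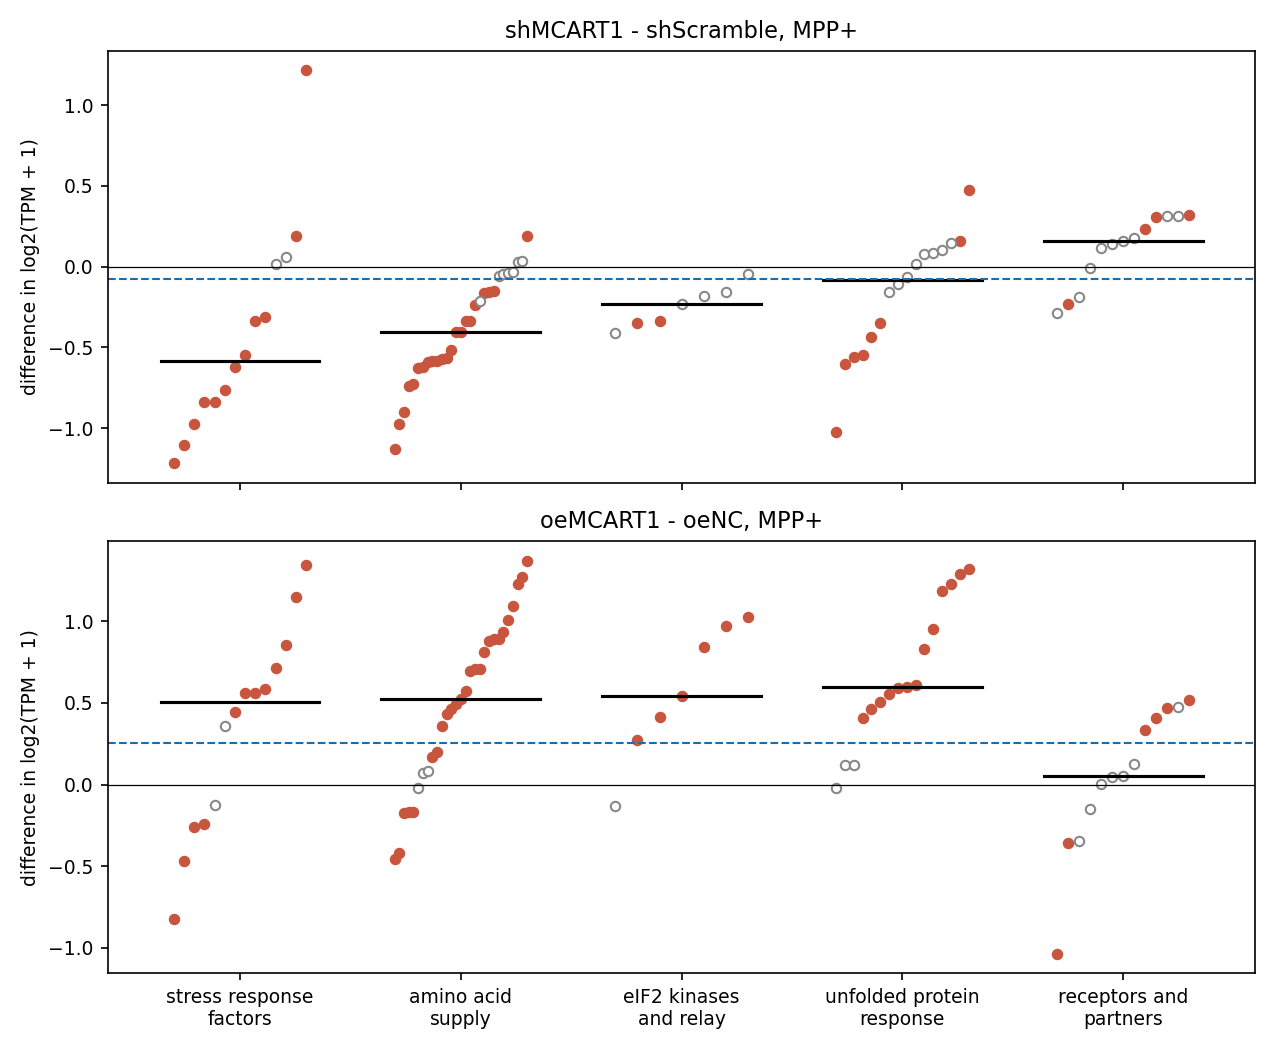
Difference in log2(TPM + 1) for each tested gene of 5 lists under MPP+, for knockdown (upper panel) and overexpression (lower panel); filled red points passed limma's adjusted p of 0.05, black bars are list medians and the dashed line the median of all genes. The stress response and amino acid lists lie mostly under the dashed line for knockdown, with medians of -0.58 and -0.41, and above it for overexpression, with 0.50 and 0.52.

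The receptors of the secreted factors were partly missing from these cells. GFRAL, the GDF15 receptor, was listed at 0 in all 8 groups, and RET, its co-receptor, at 0.46 to 1.77 TPM. CALCRL, through which adrenomedullin 2 signals, stood at 0.15 to 0.59 TPM, although its partners RAMP1 (7.73 to 20.1 TPM) and RAMP2 (3.96 to 10.3 TPM) were expressed. PAPPA, the protease held in check by stanniocalcin 2, was at 0.03 TPM or less in the untreated groups, while its substrates IGFBP4 (2.69 to 6.06 TPM) and IGFBP5 (1.81 to 8.25 TPM) were present. Of 13 tested receptors and partners in treated cells, 3 rose and 1 fell in shMCART1, and 4 rose and 2 fell in oeMCART1. The matching shares over all genes were 10.8% up and 22.2% down for knockdown, and 46.7% up and 14.2% down for overexpression. After median-of-ratios scaling, 4 rose and 0 fell in shMCART1, and 1 rose and 6 fell in oeMCART1. That scaling gave 2554 up and 2281 down for knockdown, and 4066 and 4237 for overexpression, of all 14895 genes. No pattern of receptors is read from these counts. FURIN, a convertase that cleaves TGF-beta family precursors, rose in shMCART1 (0.30, limma adjusted p = 0.0139) and fell in oeMCART1 (-0.36, adjusted p = 0.00221), opposite to the 4 factors; its knockdown call ended with GC trends removed (adjusted p = 0.0711). PCSK6, a related convertase, fell in shMCART1 (-0.23, not called after median-of-ratios scaling) and rose in oeMCART1 (0.52), and IGFBP5 fell in oeMCART1 (-1.04 ± 0.10 SE, adjusted p = 4.48e-06).

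The genes whose profile over the 12 treated libraries was most like that of each factor were read among 8820 genes with a mean of at least 5 TPM. The points share 4 groups, so a high correlation reflects the group means too, and 213 genes for GDF15 to 893 for ADM2 exceeded a Pearson r of 0.9. GDF15 was most like SLC3A2, the heavy chain of amino acid transporters (0.984), the citric acid cycle enzyme SUCLG1 (0.981) and CDKN1A (0.973). INHBE was most like ICMT (0.991), SEPHS2, which makes the selenium donor (0.987), and CEBPB (0.986). STC2 was most like TMX2 (0.984), PRKAR1B (0.977) and TOE1 (0.974), and ADM2 had C7orf50 (0.984) and MRPL51 (0.983) among its 3 most alike. Over the 12 untreated libraries the same correlations ran from -0.66 for STC2 with PRKAR1B to 0.71 for INHBE with SEPHS2. Among the factors themselves, r over the treated libraries ran from 0.862 for GDF15 with ADM2 to 0.952 for STC2 with ADM2. After subtraction of group means it was -0.33 to -0.06 for GDF15 with each of the others, and 0.58 to 0.63 among INHBE, STC2 and ADM2.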

How the data were processed

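Gene TPM were deposited by the authors in 2 tables of 12 libraries; aligner and annotation: not given in the sources used here. The submitters' processing notes name the builds GRCh38, GRCm38 and mm10 without a role. Entries without a gene identifier (25 untreated, 42 treated) were left out, and identifiers were matched to symbols for 62666 and 31207 genes. Genes at 1 TPM or more in 3 libraries of a table were tested on log2(TPM + 1) with limma 3.58.1 in R 4.3.3 (trended empirical Bayes, 4 groups per fit, 24 libraries for differences between effects), with Benjamini-Hochberg adjustment over all genes tested. The fit was tested on simulated data. The 4 genes, the gene lists and the markers were chosen with earlier results of these data known. From each list at most 4 called genes with the smallest p were named per comparison, and for each member the 3 genes with the highest Pearson r. Some genes and 1 gene list are not reported here. Tables and figures used python 3.11.15, pandas 2.3.3, numpy 2.4.6, scipy 1.17.1 and matplotlib 3.10.9. Alternatives were median-of-ratios scaling, quantile normalization, TPM rescaled to shared identifiers, and removal of GC trends (spline with 5 degrees of freedom). Others were a pseudocount of 0.1, a minimum of 5 TPM or none, and a replicate block. Fits restricted to the groups compared (2, or 4 for differences between effects) and omission of single libraries were also run.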

Additional observations from a re-analysis of the deposited data

Results flagged for a closer look

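On the log2(TPM + 1) scale, limma's test over all genes called a difference between the overexpression effects in treated and untreated cells for 2 of the 4 genes. For GDF15 the log2(TPM + 1) effect of overexpression was 1.34 with MPP+ and 0.64 without, a difference of 0.69 (adjusted p = 0.0352). The ratio of oeMCART1 to oeNC was, however, 2.60 with MPP+ and 2.57 without, and with a pseudocount of 0.1 the difference was 0.13 (adjusted p = 0.916), so the GDF15 call rests on the pseudocount of 1 TPM at untreated levels of 0.36 to 1.61 TPM. For ADM2 it was 0.88 with MPP+ and 0.05 without, a difference of 0.83 (adjusted p = 0.00530). Groups of 3 libraries were not examined for single outlying samples.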

How the results depend on the processing

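Under median-of-ratios scaling INHBE under treated knockdown was -0.95, and the GDF15 overexpression difference lost its call (0.49), as it did with quantile normalization (0.57), a pseudocount of 0.1 (0.13) and no minimum (0.69). Quantile normalization and the pseudocount of 0.1 also ended the calls of untreated GDF15 overexpression (0.51 and 1.247) and of the ADM2 overexpression difference (0.60 and 0.93). The pseudocount further moved INHBE in untreated cells to 0.13 for knockdown and 1.38 for overexpression, and the knockdown differences of INHBE and ADM2 to -1.24 and -1.01. With GC trends removed that of INHBE was -0.997. STC2 under untreated overexpression passed with GC trends removed (0.37), TPM rescaled to shared identifiers (0.28), a minimum of 5 TPM and a fit of 2 groups (both 0.27). Its overexpression difference passed with that minimum, with a fit of only the 4 groups compared (both 0.38) and with quantile normalization (0.37). INHBE under untreated overexpression passed with no minimum (0.57), where 3967 of 32421 genes were called higher and 1655 lower. The cause was not tested. Leaving out single libraries gave 0.60 to 0.79 for the GDF15 overexpression difference, -0.29 to -0.11 for untreated STC2 knockdown, 0.22 to 0.32 for untreated STC2 overexpression and 0.32 to 0.46 for its overexpression difference. The call of the GDF15 difference ended without untreated oeNC replicate 1 or 3, untreated oeMCART1 replicate 2 or 3, treated oeNC replicate 1 or 2, or treated oeMCART1 replicate 3. STC2 passed for untreated knockdown without untreated shMCART1 replicate 2, where 5318 of 14595 genes were called lower. For untreated overexpression it passed without untreated oeNC replicate 2, where 5429 of 14632 genes were called higher. The STC2 overexpression difference passed without untreated oeNC replicate 1 or treated oeNC replicate 3. Called positive differences then numbered 1907 of 15617 and 1951 of 15624 genes. Without shScramble replicate 2 the untreated knockdown called 1 gene higher and 1 lower by limma (5106 at an unadjusted p under 0.05). Without any 1 of the untreated oeMCART1 libraries, or with the minimum of 5 TPM, untreated GDF15 could not be tested. Under every alternative run, the 4 genes kept the direction of both treated comparisons, and all 4 treated overexpression calls held.

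Libraries with the same replicate number were not paired by the labels, and their deviations correlated at -0.07 to 0.21. With a replicate block, GDF15 under treated overexpression was 1.34 (adjusted p = 3.31e-05) and no call of the 4 genes changed. Depth is unknown, and levels under 1 TPM rest on few reads.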

Other observations

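Other secreted factors of the stress response were measured beside the 4 genes. FGF21, a hormone induced by mitochondrial stress, had means of 0 to 0.36 TPM in the untreated groups. With MPP+ it fell from 3.56 ± 0.318 TPM in shScramble to 1.21 ± 0.0872 in shMCART1 (-1.04 ± 0.16 SE, limma adjusted p = 0.000896). It rose from 3.63 ± 1.16 TPM in treated oeNC to 5.05 ± 0.564 in treated oeMCART1 (0.42, limma adjusted p = 0.0443). The latter call ended with median-of-ratios scaling, with quantile normalization and with GC trends removed. VEGFA, the growth factor of blood vessels, fell in treated shMCART1 (-0.50) and rose in oeMCART1 (0.52). LIF, a cytokine of the interleukin-6 family, stood at 0.767 TPM in treated oeNC and 2.88 TPM in oeMCART1 (1.14, limma adjusted p = 2.02e-05). It passed the expression minimum only through treated oeMCART1, so it had to differ to be tested and this p is no support for a rise. In treated shMCART1 its difference from shScramble was -0.02 (adjusted p = 0.918). IL6, CXCL8 and IGFBP3 had means of at most 0.33 TPM in every group.

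Paralogues did not share one pattern. CALCB, a calcitonin gene-related peptide of the family of ADM2, was expressed at 22.7 to 31.9 TPM without MPP+ and 68.2 to 124 TPM with it, fell in treated shMCART1 (-0.51 ± 0.05 SE, limma adjusted p = 8.66e-05) and rose in oeMCART1 (0.57, adjusted p = 3.55e-06). ADM, the paralogue of ADM2, rose in treated shMCART1 (0.40, adjusted p = 0.0364), a call that ended with GC trends removed (0.33, adjusted p = 0.0607). STC1, the paralogue of STC2, and INHBC had means of at most 0.19 TPM in all groups.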
